A study of Mus musculus with 3 samples.

Results

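The late genes are 136 of the 18193 genes that had a probe set of their own on the array, in mouse embryonic stem (ES) cells that overexpressed the transcription factor Gata6 for up to 2 days. ES cells are pluripotent cells derived from the early embryo. A gene was a member where its signal on day 1 was between 0.5 and 2 times that on day 0, and its signal on day 2 was at least 3 times that on day 1, at least 2 times that on day 0 and at least 150. Signals under a floor of 54 had been set to 54, and each gene was read from the probe set, annotated to that gene alone, with the highest mean log2 signal over the 3 arrays. The rule was met by 140 genes, of which Ttr, S100g, Selenop and Fst were left out. The members were therefore chosen on the same values that are described here, and none of their day-to-day ratios is a test.

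The groups were day 0, the control, day 1 and day 2 of Gata6 overexpression, with 1 array each and no replicates. Per the design text, Gata6 overexpression in the modified cells responds to dex. Whether the day 0 cells carried the Gata6 modification or saw dex is not stated in the labels, and neither are the dose, the parent line or the vector. A difference between days is thus also a difference between single cultures and single arrays, and no p-value is given. In RNA from a whole culture, more cells of one type and more RNA per cell cannot be told apart.

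Gata6 encodes a zinc finger factor that drives ES cells towards primitive endoderm, the layer that the blastocyst sets aside for the yolk sac. Primitive endoderm later divides into visceral endoderm, a polarised epithelium that takes up maternal proteins by endocytosis and secretes plasma proteins, and parietal endoderm, whose migratory cells lay down a thick basement membrane. Genes of transcription factors tend to change early in such a transition, whereas many genes of epithelial structure, uptake and secretion belong to the later, differentiated cell.

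The arrays carried the labelled course. Gata6 itself read 109.6, 5573.2 and 6071.2 on days 0, 1 and 2, and the endocytic adaptor Dab2 read 71.9, 10963.8 and 24469.0. The pluripotency factors Pou5f1, Nanog and Sox2 read 4049.7, 14627.6 and 11696.1 on day 0, so day 0 had the markers of ES cells, and all 3 were lower on each later day. Median signals lay between 81.8 and 86.4, and the ratios of 3′ to 5′ control signal lay between 1.21 and 1.25 for Actb and between 0.765 and 0.784 for Gapdh. Markers of other cell types were mixed. As a background level, 80 probe sets for receptors of smell and pheromones, which ES cells are not known to express, had a 95th percentile of 70.2. Above it were 2, 3 and 2 of 12 fibroblast markers on days 0, 1 and 2, with a summed signal of 743.4, 487.0 and 563.8, and 7 of them, Col1a1, Col3a1 and Postn included, were at the floor on every array. Of 6 trophoblast markers 4, 5 and 5 lay above it, with sums of 1862.4, 1622.0 and 1410.0, led by Eomes and Tfap2c, and Elf5 was at the floor. Of 10 blood and endothelium markers 4, 5 and 6 did, with sums of 1538.6, 1669.1 and 1038.5, Runx1 and Gata1 among them, while Tal1, Ptprc, Hba-x and Hbb-bh1 were at the floor. Of 4 neural markers 2, 2 and 3 did, with sums of 998.5, 325.5 and 300.1. The part of such cells in the results was not tested.

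In all, 228 of the 13468 genes above the floor on day 1 or day 2 (1.69%) were at least 3-fold higher on day 2 than on day 1, and 757 (5.62%) were at least 2-fold higher. The late genes come from within that first group by definition, so their share says nothing about them. Lower by at least 2-fold were 494 (3.67%). Set against day 0, 1534 of 13865 genes (11.1%) were at least 2-fold higher on day 2 and 1398 (10.1%) at least 2-fold lower, and 720 (5.19%) were at least 3-fold higher. Of those, 465 (64.6%) were already at least 2-fold higher on day 1, 251 (34.9%) were within 2-fold of day 0 on day 1, and 4 were at least 2-fold lower. The late genes made up 116 (16.1%) of the 720, and their other 20 members were less than 3-fold above day 0. The mirrored pattern, with signals level until day 1 and then lower by the same margins on day 2, was found for 56 genes.

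Most late genes were dim before day 2. Median signals over the members were 99.6, 117.4 and 548.8 for the 3 days in order, and 34 genes lay at the floor on day 0, 27 on day 1 and 16 on both. The day 1 signal was no higher than the receptor background of 70.2 in 44 members. For these 44 the ratio of day 2 to day 1 is a lower bound. The median ratio was 3.75-fold, the lowest 3.01-fold and the highest 19.96-fold, with 31 members at 5-fold or more and 76 under 4-fold. For comparison, 217 plateau genes, which were at least 3-fold higher on day 1 (as were 346 genes in all, 2.54%), then stayed within 2-fold and read 150 or more on day 2, had a median day 2 signal of 1130. Their day 0 signals were low too, with a median of 137.4 and 22.1% at the floor, against 25% of the late genes.

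The name "rising only on day 2" holds within the limits of the rule rather than exactly. On day 1, 74 members were above their day 0 signal, 46 below it and 16 at the floor on both days. Of the 74, 29 were at least 1.5-fold higher, and of the 46, 8 were at least 1.5-fold lower. The measurement error that can be read from genes with several probe sets, as the standard deviation (SD) of a log2 ratio, came to 0.50 where the signal was under 200 and to 0.36 between 200 and 1000. It was smaller in bright genes, 0.21 between 1000 and 5000 and 0.13 beyond 5000. It covers probe sets within these arrays and not the spread between cultures. A 2-fold difference on day 1 in a dim gene is thus close to 2 such SDs, and the day 1 values of dim members have little order.

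**Figure D1:**
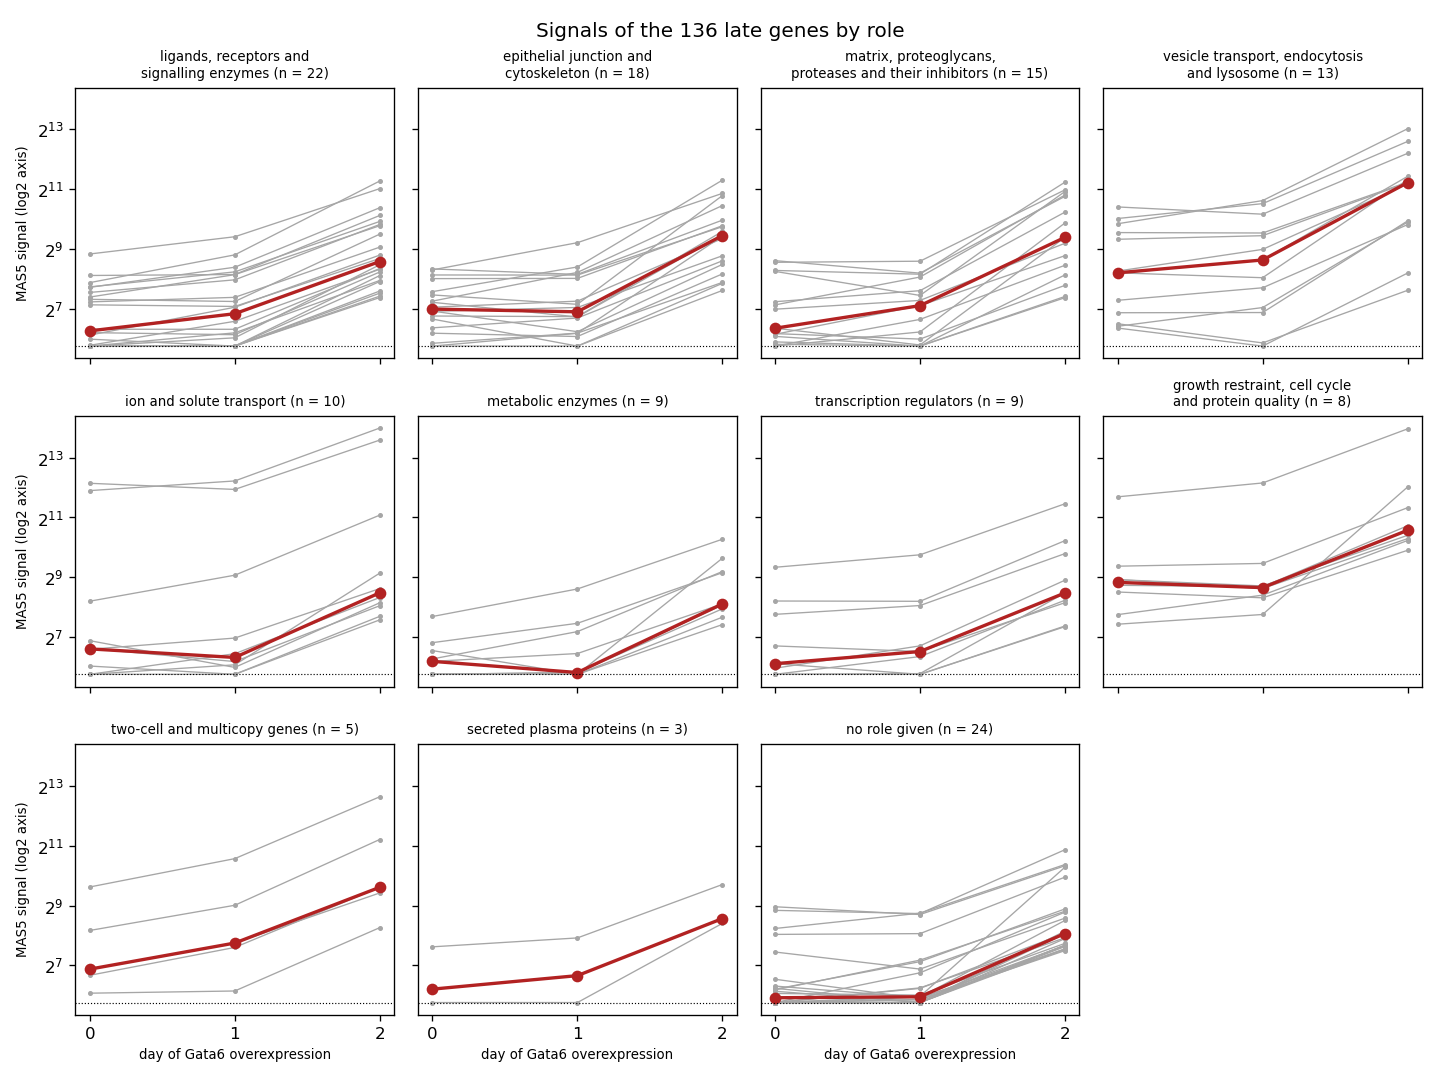
Signals of the 136 late genes on days 0, 1 and 2 (x axis), on a log2 axis of MAS5 signal (y axis), in panels by role. Roles were given by hand after the values were seen. Grey lines are single genes, the red line is the median of the panel, and the dotted line is the floor of 54. In each panel the median is within 2-fold of its day 0 level on day 1 and highest on day 2, as the rule sets, and the members for vesicle transport, endocytosis and lysosome have the highest median on day 2, 2382.2.

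Promoter sequence was compared because the rule did not use it and the overexpressed factor binds DNA. Of the 136 members, 102 had an entry in the RefSeq promoter table of build GRCm38.p6, each a window of 300 bases, 250 before to 50 after the gene's start. The words searched for GATA factors were AGATAA and AGATAG, with TGATAA and TGATAG, on either strand, and 20 of the 102 windows (19.6%) held at least 1. The share was 16.6% among 175 plateau genes, 19.5% among 11477 genes above the floor and 30.2% among all 27025 promoters in the table. The late genes thus stood at the level of the genes above the floor. The floor of 54 lies under the receptor background of 70.2, so that set is not limited to clearly expressed genes. Forkhead words (TGTTTAC or TGTTTGC) stood in 5.88% of the late windows and 6.19% of those of genes above the floor. The HNF1 half-site GTTAAT stood in 3.92% and 4.17%, and TATAAA in 8.82% and 7.96%.

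Other words differed a little more. CCAAT stood in 29.4% of the late windows and 38.4% of those of genes above the floor, and the TEAD word GGAATG in 16.7% and 12.2%. The shares for the SOX words ACAATGG or AACAATG were 1.96% and 3.54%, for the AP-1 word TGAGTCA 1.96% and 3.88%, and for the E-box CACGTG 7.84% and 9.86%. The nuclear receptor half-site AGGTCA stood in 12.7% of both, and the glucocorticoid receptor half-site TGTTCT in 9.80% and 12.7%. Several words are short and occur often by composition, and each was counted on both strands. A word missing from a window says only that these letters are not in it.

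CpG content was lower in the late windows. The ratio of observed to expected CpG had a median of 0.579 in the late genes, 0.718 in the plateau genes and 0.735 in all genes above the floor. Windows with a ratio under 0.4 made up 28.4% of the late genes, 14.9% of the plateau genes and 20.3% of genes above the floor. Median GC content was alike, at 61.2%, 63.7% and 60.3%. As background, CpG-poor promoters are common among tissue-restricted genes. No test was run on these shares.

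**Figure D2:**
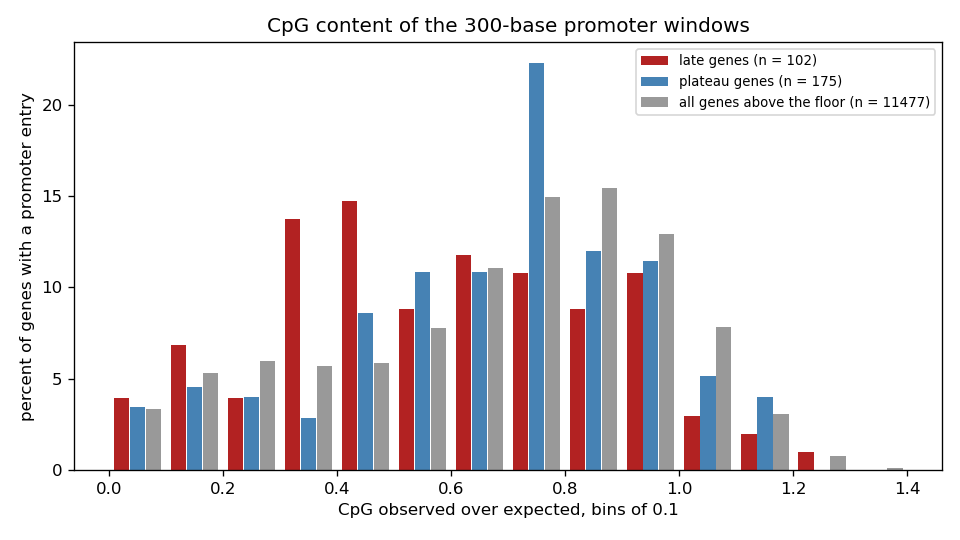
Ratio of observed to expected CpG in 300-base promoter windows (x axis, bins of 0.1) against the percent of genes with a promoter entry (y axis), for 102 late genes, 175 plateau genes and 11477 genes above the floor. The late genes are spread over the whole range, with 28.4% under 0.4, against 20.3% of all genes above the floor.

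The upstream 250 bases of 6 members are shown, with the 4 GATA words and TATAAA in capitals on either strand, from the RefSeq table of build GRCm38.p6. Nxf7 (chrX:135598782-135599031, minus strand), Hdc (chr2:126618679-126618928, minus strand), Enpep (chr3:129332750-129332999, minus strand) and Adam19 (chr11:46054252-46054501, plus strand) are the members with the highest ratios whose windows hold such a word. Fgb (chr3:83049864-83050113, minus strand) is shown as a plasma protein gene with 2 GATA words. Ap1m2 (chr9:21312334-21312583, minus strand) is shown for contrast, as a CpG-richer window with none of them. All run 5′ to 3′ towards the gene's start.
Nxf7: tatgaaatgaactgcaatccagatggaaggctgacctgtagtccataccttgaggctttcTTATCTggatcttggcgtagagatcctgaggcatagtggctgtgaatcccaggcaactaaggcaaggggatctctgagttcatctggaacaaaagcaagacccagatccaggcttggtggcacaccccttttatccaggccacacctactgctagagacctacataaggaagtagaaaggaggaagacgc
Hdc: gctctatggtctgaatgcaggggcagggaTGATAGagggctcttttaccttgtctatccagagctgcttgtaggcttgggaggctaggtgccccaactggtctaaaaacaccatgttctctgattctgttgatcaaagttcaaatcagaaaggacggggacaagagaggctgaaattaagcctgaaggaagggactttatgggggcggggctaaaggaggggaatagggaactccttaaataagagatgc
Enpep: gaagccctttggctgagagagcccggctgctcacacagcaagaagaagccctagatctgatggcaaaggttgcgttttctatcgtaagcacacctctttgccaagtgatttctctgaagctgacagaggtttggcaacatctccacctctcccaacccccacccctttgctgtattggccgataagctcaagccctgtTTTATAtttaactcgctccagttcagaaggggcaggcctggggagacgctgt
Adam19: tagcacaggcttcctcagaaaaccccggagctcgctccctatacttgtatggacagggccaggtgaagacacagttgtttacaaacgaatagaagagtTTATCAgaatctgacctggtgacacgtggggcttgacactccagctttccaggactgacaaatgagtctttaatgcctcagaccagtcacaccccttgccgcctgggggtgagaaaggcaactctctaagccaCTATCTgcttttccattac
Fgb: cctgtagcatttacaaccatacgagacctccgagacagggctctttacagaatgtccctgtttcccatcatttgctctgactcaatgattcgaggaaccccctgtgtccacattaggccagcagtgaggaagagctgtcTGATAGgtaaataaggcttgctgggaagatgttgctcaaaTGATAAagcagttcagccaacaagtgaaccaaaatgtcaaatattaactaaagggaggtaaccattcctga
Ap1m2: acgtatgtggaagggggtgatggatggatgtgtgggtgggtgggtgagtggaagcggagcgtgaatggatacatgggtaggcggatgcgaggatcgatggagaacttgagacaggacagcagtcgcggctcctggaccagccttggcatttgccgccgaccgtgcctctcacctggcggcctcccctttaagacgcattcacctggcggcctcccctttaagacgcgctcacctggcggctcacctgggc
The ratio of observed to expected CpG in the full windows was 0.11 for Nxf7, 0.165 for Hdc, 0.36 for Enpep, 0.276 for Adam19, 0.311 for Fgb and 0.791 for Ap1m2. In Enpep the capitals are TTTATA, the reverse complement of TATAAA. The words are matches of letters and were not tested as sites.

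The highest ratio belonged to Nxf7, a member of the nuclear RNA export factor family, which read the floor, 62.3 and 1243.5 on days 0, 1 and 2, at least 19.96-fold higher on day 2 than on day 1. Cryab, the small heat shock protein alpha B-crystallin, read 172.5, 216.1 and 4143.3 and was 19.2-fold higher. Hdc, which makes histamine from histidine, read the floor, the floor and 795.1 and was at least 14.7-fold higher. In all 3 the earlier days lay close together, and day 2 stood far above both. A second probe set gave a like course for Cryab (176.4, 109.9 and 4029.5), whose last probe set was at the floor on each array. The same held for Hdc (the floor, the floor and 647.1), while Nxf7 had no other probe set. Both Hdc probe sets are of a kind that other transcripts can share.

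**Figure D3:**
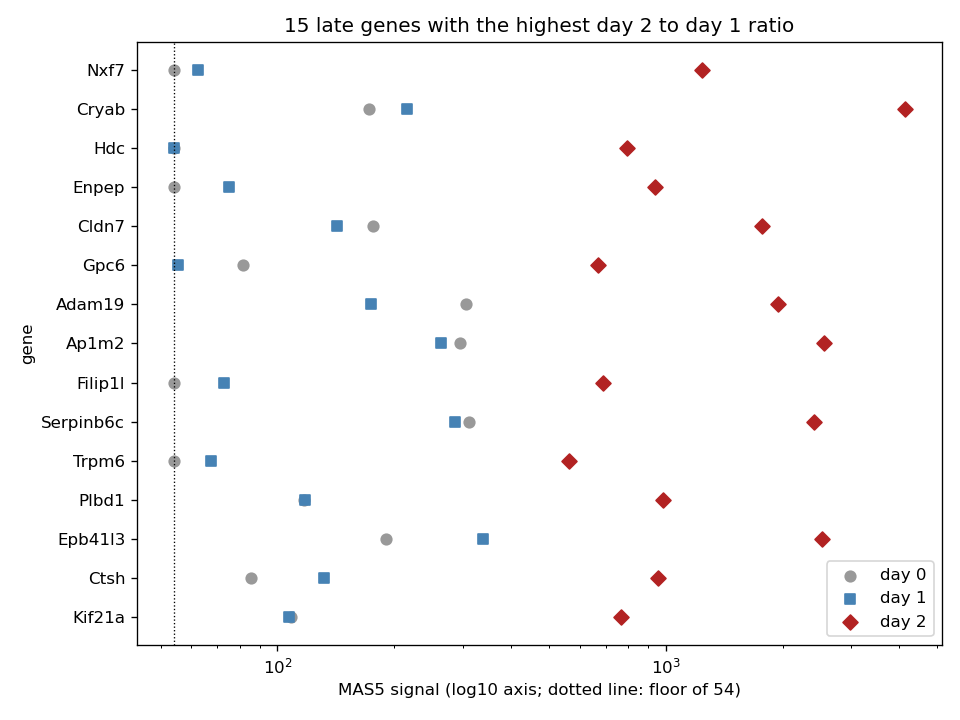
MAS5 signal (x axis, log10 scale) of the 15 late genes with the highest ratio of day 2 to day 1 (y axis, highest at the top) on day 0 (circles), day 1 (squares) and day 2 (diamonds), with signals under 54 drawn at 54 (dotted line). Day 0 and day 1 lie within 2-fold of each other for each gene, as the rule sets, and day 2 lies between 563.0 for Trpm6 and 4143.3 for Cryab.

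Genes for vesicle transport, endocytosis and the lysosome formed the group with the brightest day 2 median, 2382.2, and held 13 members with ratios of 3.25-fold to 9.69-fold. Roles were given by hand after the values were seen, so the sizes and medians of role groups only describe this grouping. Ap1m2, the epithelial subunit of a clathrin adaptor that sorts proteins to the basolateral membrane, read 295.0, 263.4 and 2551.7 on days 0, 1 and 2, 9.69-fold higher than on day 1. Stx3, a syntaxin of the apical membrane, read 920.2, 1573.6 and 8310.4 and was 5.28-fold higher, and it was the 4th brightest member on day 2. Myo6, a myosin that moves endocytic vesicles towards the minus end of actin, read 294.1, 397.4 and 2755.4. Clcn5, a chloride and proton exchanger of endosomes that kidney tubules need for protein uptake, read 1358.0, 1148.3 and 4700.2. These 4 were all within 2-fold of day 0 on day 1, as the rule requires.

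Lysosomal members followed the same course at different levels. Lgmn, an asparagine-specific protease, read 1038.9, 1466.4 and 6192.2 on days 0, 1 and 2, and Ctsh, the protease cathepsin H, read 85.5, 131.9 and 954.4. Lamp2, a lysosomal membrane protein, read 642.0, 697.7 and 2382.2 and was 3.41-fold higher on its chosen probe set. Its other probe sets differed in size: the 3 had log2 ratios of day 2 over day 1 of 0.48, 1.22 and 1.99. Plbd1, a phospholipase B-like protein, read 117.0, 117.5 and 981.5, and the mannosidase gene Man2b2 stayed dim at 90.6, 58.1 and 196.5. Gpr137b, a lysosomal membrane protein, read 307.3, 507.8 and 2309.4, and its pseudogene Gpr137b-ps, whose sequence is close enough that the array may not separate them, read 262.1, 266.8 and 987.6.

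Remaining members of this group were Scamp1, a carrier membrane protein of recycling vesicles, at 749.8, 742.5 and 2411.4, Copz2, a COPI coat subunit, at 82.0, the floor and 293.2, and Wls, which carries Wnt proteins to the cell surface, at 156.0, 208.6 and 900.9. Around these members, the endocytic receptors of the endoderm came earlier. Cubn read the floor, 2542.1 and 20102.2, its partner Lrp2 (megalin) 732.4, 4262.4 and 10304.0 and Amn, which carries cubilin to the membrane, 648.4, 4211.1 and 7429.6 on days 0, 1 and 2. Of 18 measured genes on a list of endoderm endocytosis, 9 were at least 2-fold higher and 0 lower in day 1 against day 0 (6.01% and 6.58% of all genes), and 7 were at least 2-fold higher and 0 lower in day 2 against day 1 (5.62% and 3.67% of all genes). Late genes were 3 of the 18, Myo6, Clcn5 and Lgmn. In this and later lists, late genes and the left-out genes count as higher on day 2 by the rule. Over all genes above the floor, 136 of 14257 were late genes, and the lists were written by hand with earlier results of these data known. The median log2 ratio of the list was 0.76 on day 1 and 0.73 for day 2 over day 1, beside -0.02 and 0.00 over all genes above the floor.

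Of 37 measured lysosomal genes, 6 were at least 2-fold higher and 1 lower in day 1 against day 0 (6.01% and 6.58% of all genes), and 9 were higher and 1 lower in day 2 against day 1 (5.62% and 3.67% of all genes), with medians of 0.10 and 0.58. Late genes were 3 of the 37. Ctsa (1950.2, 1701.6 and 4615.0) and Ctsd (3056.4, 3011.8 and 6991.6) had the same course as Ctsh under the 3-fold limit, and Lgals3 was lower on day 2 (2567.1, 1655.9 and 573.2).

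Epithelial and cytoskeletal genes were 18, with ratios of 3.07-fold to 12.4-fold. Cldn7, a claudin of tight junctions and the lateral membrane, read 176.7, 142.2 and 1764.9 on days 0, 1 and 2, 12.4-fold higher on day 2 than on day 1. Esrp1, an RNA-binding protein that sets epithelial splice patterns, read 148.9, 106.2 and 707.9 and was 6.67-fold higher. Epb41l3, a protein that ties membrane proteins to spectrin and actin, read 190.8, 338.0 and 2524.2, and the kinesin Kif21a read 108.4, 106.9 and 769.2. The first pair was lower on day 1 than on day 0 before its day 2 level, and Epb41l3 was 1.77-fold higher on day 1, with another probe set at 123.5, 280.2 and 1546.1.

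Several further members bind or regulate actin. Pls3 (plastin 3) read 315.7, 593.2 and 1859.0, Lima1 322.7, 284.4 and 999.4 and Limch1 280.7, 280.0 and 858.7 on days 0, 1 and 2. Eps8l2, an actin regulator of epithelial microvilli, read 257.9, 259.3 and 877.8, and Filip1l read the floor, 72.7 and 690.0. Sh3pxd2b, a scaffold of podosomes, read 153.1, 297.9 and 1401.0, while its other probe set read 54.2, 141.7 and 219.6 and so was higher on day 1 already. The other members here were Arhgef5, Syne1, Cdc42ep2, Acta1, Tgfb1i1, Crybg1, Drp2 and Cdcp1, whose day 2 signals lay between 195.9 and 653.2. All lay below the median of the group, 699.0.

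On a list of 34 measured epithelial genes, 8 were at least 2-fold higher and 5 lower in day 1 against day 0 (6.01% and 6.58% of all genes), and 11 were higher and 1 lower in day 2 against day 1 (5.62% and 3.67% of all genes), with medians of 0.14 and 0.25. Late genes were 2 of the 34, Cldn7 and Esrp1. Cldn6, another claudin, fell just outside the rule, since its day 1 signal was 2.09 times that of day 0, and read 89.9, 187.5 and 2895.2. The keratins Krt8 (566.8, 1551.9 and 5367.2) and Krt18 (556.0, 1594.1 and 3846.8) were higher on both days.

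Matrix, proteoglycan and protease genes were 15, with ratios of 3.07-fold to 12.5-fold. The glypicans, cell surface heparan sulfate proteoglycans that shape growth factor signals, had a pair of members. Gpc6 read 81.7, 55.4 and 670.5 on days 0, 1 and 2, at least 12.1-fold higher on day 2 than on day 1, and its 4 other probe sets had log2 ratios of 1.19 to 3.63. Gpc3, mutated in a human overgrowth syndrome, read 391.1, 292.8 and 1734.7 and was 5.92-fold higher. Both were lower on day 1 than on day 0 and highest on day 2.

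Surface and secreted proteases included Enpep, an aminopeptidase that cleaves angiotensin II, at the floor, 74.9 and 935.8 (12.5-fold higher on day 2 than on day 1), and Adam19, a membrane-bound metalloprotease, at 305.0, 174.6 and 1941.1 (11.1-fold). Adam19 was the member of this group with the lowest day 1 signal relative to day 0, at 0.572 times. The other Adam19 probe set read 134.5, 72.7 and 601.8. The protease inhibitor Timp2 read 140.3, 267.6 and 1788.6, with day 1 already at 1.91 times day 0. Of its 5 other probe sets, 4 had log2 ratios of 1.99 to 3.94 for day 2 over day 1, and 1 was at the floor on each array. Serpinb6c, a serine protease inhibitor from a family of close copies, read 311.7, 285.8 and 2409.5 on a probe set shared with other transcripts.

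Genes used as parietal endoderm markers were 3 of the late genes: Thbd (thrombomodulin) at 59.5, the floor and 280.8, Plat (tissue plasminogen activator) at 71.0, 137.9 and 438.8 and Tmprss2, a membrane serine protease, at the floor, 100.2 and 351.3 on days 0, 1 and 2. All 3 were dim. Of 22 measured genes on the parietal endoderm list, 11 were at least 2-fold higher and 2 lower in day 1 against day 0 (6.01% and 6.58% of all genes), and 13 were higher and 1 lower in day 2 against day 1 (5.62% and 3.67% of all genes), with medians of 1.30 and 1.14. The abundant matrix genes on that list were higher on day 1 already, such as Lama1 (1728.9, 20500.7 and 29591.7) and Col4a1 (2147.0, 14987.9 and 32410.9). Fst, left out by the rule, is also on it and among the 13. On a list of 39 measured matrix genes, 7 were higher and 5 lower in day 1 against day 0 (6.01% and 6.58% of all genes), and 7 higher and 3 lower in day 2 against day 1 (5.62% and 3.67% of all genes), and the late genes on it were Timp2 and Adamts1 (72.1, 63.5 and 220.7).

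Ccn1, a matrix-associated signalling protein, read 376.5, 386.1 and 2016.3 on days 0, 1 and 2. Its 3 other probe sets had log2 ratios of day 2 over day 1 of 0.62, 1.61 and 2.88. Chpf2, which takes part in chondroitin synthesis, read 127.0, 155.6 and 584.9, and Has2, which makes hyaluronan, 56.3, the floor and 170.5. Tspan5, a tetraspanin that guides the protease ADAM10 to the surface, read 151.0, 195.0 and 1203.2. The 15th member, Adamtsl5, reached 165.7 on day 2.

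Secreted plasma proteins, a hallmark of visceral endoderm, had only 3 members besides the genes left out by the rule. Fgb, the fibrinogen beta chain, was under the floor on days 0 and 1 and read 337.9 on day 2, at least 6.26-fold higher. Apom, an apolipoprotein that carries sphingosine 1-phosphate, read 73.7, 100.8 and 377.8, and its second probe set read 58.8, 71.4 and 317.8. Rnase4, a secreted ribonuclease, read 196.5, 241.5 and 832.2. The list of visceral endoderm secreted proteins had 19 measured genes, of which 3 were at least 2-fold higher and 2 lower in day 1 against day 0 (6.01% and 6.58% of all genes), and 6 were higher and 0 lower in day 2 against day 1 (5.62% and 3.67% of all genes). Their medians were 0.00 and 0.46. Among the 6, Apom and Fgb, with the left-out Ttr and Selenop, met the rule, which fixed their day 2 call. The rest were Mttp and Spink1. The other fibrinogen chain measured, Fgg, was 171.9 on day 0 and under the floor on both later days, so the chains did not follow one course. Of 7 visceral endoderm markers, 1, 3 and 4 were above the receptor background of 70.2 on days 0, 1 and 2. On day 2 these were Ttr, Cubn, Amn and Hnf4a, while the secreted Afp (13.8), Apoa1 (56.6) and Apob (65.7) stayed within background.

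Ion and solute transport had 10 members, among them 2 of the 3 brightest late genes. Slc16a1, the lactate and pyruvate carrier MCT1, read 3816.5, 4773.2 and 16259.8 on days 0, 1 and 2, and was the brightest member on day 2. Atp1b1, the beta subunit of the sodium pump, read 4520.4, 3922.0 and 12296.7, and 3 of its 4 other probe sets had log2 ratios of day 2 over day 1 of 1.42, 1.78 and 1.99, with the last at 111.5 or less on each array. Fxyd3, a small regulator of that pump, read 96.6, 125.1 and 393.7. Slc16a1 and Atp1b1 were well expressed before day 2, unlike most late genes.

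Trpm6, a magnesium channel of absorptive epithelia, read the floor, 67.3 and 563.0 on days 0, 1 and 2 and was at least 8.37-fold higher on day 2 than on day 1. Ank, which exports pyrophosphate, read 294.2, 537.2 and 2159.8. The aromatic amino acid carrier Slc16a10, the organic anion carrier Slco3a1, the sodium, calcium and potassium exchanger Slc24a3, the chloride channel gene Clic3 and the potassium channel subunit Lrrc38 read between 190.6 and 319.9 on day 2. Of 31 measured genes on a list of epithelial transport, 4 were at least 2-fold higher and 3 lower in day 1 against day 0 (6.01% and 6.58% of all genes), and 10 were higher and 2 lower in day 2 against day 1 (5.62% and 3.67% of all genes), with medians of -0.21 and 0.21. Late genes were 3 of the 31.

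Ligands, receptors and signalling enzymes made up the largest group with a role, 22 members, with ratios of 3.04-fold to 5.53-fold and a day 2 median of 383.0. Prkaa2, a catalytic subunit of the energy sensor AMPK, read 235.1, 447.4 and 2475.2 on days 0, 1 and 2. It was 5.53-fold higher on day 2 than on day 1, and its other probe sets read the floor, 92.3 and 477.6, and 213.9, 366.1 and 2439.8. Tyro3, a receptor kinase that binds Gas6 and protein S, read 456.7, 680.8 and 2074.4, and Tnfrsf12a, the receptor of the cytokine TWEAK, read 210.8, 335.8 and 1332.4. Sgk3, an endosomal kinase of the Akt type, read 277.4, 283.7 and 1114.2. On the other probe sets, Sgk3 read 162.3, 392.3 and 1228.4, so that it was more than 2-fold higher on day 1 already, and 283.3, 329.0 and 854.8, under the 3-fold limit, while those of Tyro3 and Tnfrsf12a met the rule.

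Ligands were fewer and dim. Fgf1, a growth factor that activates all FGF receptors, read 140.5, 135.3 and 410.8 on days 0, 1 and 2 on 1 probe set and was at the floor on its 2 others. Fgf22 read 63.4, the floor and 184.0, and Frzb, a secreted Wnt inhibitor, the floor, the floor and 193.3. Cxcl16, a membrane-bound chemokine, read 150.4, 167.1 and 534.6, and Lgals9, a galectin, 168.3, 282.8 and 878.5. Lgals9 and Cxcl16 were the ones above 500 on day 2. Of 61 measured genes on a growth factor list, 15 were at least 2-fold higher and 14 lower in day 1 against day 0 (6.01% and 6.58% of all genes), and 10 higher and 6 lower in day 2 against day 1 (5.62% and 3.67% of all genes), with medians of 0.03 and -0.06, and the late genes on it were Flt1 and Frzb.

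Flt1, a receptor of VEGF, read the floor, 65.4 and 355.2 on days 0, 1 and 2, and 2 of its 3 other probe sets read 310.7 and 295.5 on day 2. Flt1 and Thbd are also known from endothelium. The blood and endothelium markers as a whole are given above. Of the defining endothelial genes, Kdr read 90.3, 78.6 and 81.3, and Cdh5 6.2, 42.5 and 89.7. Their part in the Flt1 and Thbd values was not tested.

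Receptors for lysophosphatidic acid had 2 members, Lpar2 at 187.3, 250.8 and 904.3 and Lpar3 at the floor, the floor and 171.8 on days 0, 1 and 2. Lpar2 was the clearly measured one. Epha1, an ephrin receptor, read 73.8, 70.3 and 300.5, Adgra2, an adhesion receptor that takes part in Wnt7 signals, the floor, 73.4 and 246.9, and Gpr146 69.7, 132.8 and 444.6. Adcy6, which makes cyclic AMP, read 79.8, 79.7 and 325.6. The remaining members were the kinases Nrk (159.6, 151.8 and 722.8), Tnk1 (212.9, 301.5 and 970.2) and Ptk6, the guanine exchange factor Rgl1, the adhesion protein Flrt2 and the lectin Clec10a, with Ptk6, Rgl1 and Clec10a under the floor on both earlier days.

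Transcription regulators were 9, with ratios of 3.02-fold to 6.48-fold, and most stayed dim. Maf, a leucine zipper factor, read the floor, 54.9 and 355.7 on days 0, 1 and 2 and was at least 6.48-fold higher on day 2 than on day 1, but of its 5 other probe sets 4 were at the floor on each array and 1 read 80.9 on day 2. Creb3, a membrane-bound factor released from the endoplasmic reticulum and Golgi, was the brightest at 645.5, 861.8 and 2810.3, on a probe set that other transcripts can share. The other Creb3 probe sets had log2 ratios of day 2 over day 1 of 1.20, 1.47 and 1.33, under the 3-fold limit. Rhox6, a homeobox gene of the X chromosome expressed in placenta and germ cells, read 295.3, 293.4 and 1195.7. Atf3, a stress-induced repressor, read 216.8, 265.9 and 885.6, and Crtc3, a coactivator of CREB, 62.2, 104.4 and 478.0. Irx1, Foxc1, Barx1 and Stox1 reached 162.9 to 300.4 on day 2.

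Rhox6 had company in its own gene cluster. Of 4 measured Rhox genes, Rhox9 read 273.9, 248.7 and 714.5 on days 0, 1 and 2, Rhox5 read 11839.1, 10251.2 and 13469.8, and Rhox13 231.6, 240.5 and 128.9. Rhox6 and Rhox9 were thus at least 2-fold higher on day 2 than on day 1, and Rhox5 and Rhox13 were not. Foxc1 is known from mesoderm. It was under the floor on days 0 and 1 and read 165.4 on day 2, and its other probe set was at the floor on each array. Of 15 measured mesoderm genes, Foxc1 among them, 0 were at least 2-fold higher and 1 lower in day 1 against day 0 (6.01% and 6.58% of all genes), and 1, Foxc1, was higher and 1 lower in day 2 against day 1 (5.62% and 3.67% of all genes), with medians of -0.16 and 0.01. The brightest, Tcf15, read 2411.9, 1634.5 and 879.0, while Mesp1, Mixl1 and Tbx6 read under 100 on each array and Foxf1 read 38.6, 77.9 and 153.6. Their part in the Foxc1 signal was not tested. Of 24 measured endoderm transcription factor genes, 12 were at least 2-fold higher and 3 lower in day 1 against day 0 (6.01% and 6.58% of all genes), and 5 higher and 2 lower in day 2 against day 1 (5.62% and 3.67% of all genes), with medians of 1.35 and 0.53. Maf was the 1 late gene among them.

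Genes of growth restraint, the cell cycle and protein quality were 8. Ubqln2, which delivers ubiquitinated proteins to the proteasome, was the 2nd brightest late gene at 3303.9, 4555.5 and 15950.0 on days 0, 1 and 2. Cyba, the p22phox subunit of NADPH oxidases, read 661.8, 705.8 and 2566.0. Ccnd2, cyclin D2, read 425.2, 410.9 and 1687.8, and 4 of its 6 other probe sets had log2 ratios of day 2 over day 1 of 1.90 to 2.33, with the other pair under 150 on each array. Cdkn1c, the CDK inhibitor p57, read 363.8, 318.1 and 956.0 and stood closest to the limit of the rule, at 3.01-fold. A cyclin and a CDK inhibitor were thus both among the late genes.

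Plk2 (484.4, 418.7 and 1352.6), Btg2 (485.7, 394.5 and 1253.3) and Ddit4l (215.4, 338.3 and 1200.0) are known as genes of restrained growth or stress. Plk2 and Btg2 are also known targets of p53, the damage-response factor. Of 26 measured genes on a p53 target list, 2 were at least 2-fold higher and 2 lower in day 1 against day 0 (6.01% and 6.58% of all genes), and 9 were higher and 0 lower in day 2 against day 1 (5.62% and 3.67% of all genes), with medians of -0.24 and 0.65. The 9 were Plk2, Btg2 and 7 that are no late genes, among them Cdkn1a (494.3, 201.5 and 1978.2), Bbc3 (494.1, 298.2 and 817.7), Eda2r (319.0, 303.1 and 856.5) and Polk (325.8, 340.9 and 964.1). Mdm2 (1618.1, 1847.3 and 3320.6) and Ccng1 (4651.5, 4214.6 and 7324.0) were under 2-fold.

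Cryab lies beside another late gene. Its nearest protein-coding neighbour on the one side is the late gene 2310030G06Rik, which read 300.6, 428.7 and 1322.6 on days 0, 1 and 2, and on the other side Hspb2, another small heat shock protein, which read 245.5, 119.9 and 618.4. Hspb2 was outside the rule by a narrow margin, with a day 1 signal 0.488 times that of day 0. The next genes out, Dixdc1 (147.5, 113.1 and 105.1) and 1110032A03Rik (248.5, 208.3 and 395.8), did not double on day 2. Of the other members, Gm20767, AF067061 and Tcstv3 lie on chromosome 13 with 1 protein-coding gene between each pair of neighbours. Chromosomes 2, 3, 11, 13 and X each held 11 late genes (8.09% of the 136), beside 7.98%, 4.85%, 8.16%, 3.75% and 3.21% of all genes above the floor, and the other chromosomes held 1 to 9.

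Those 3 genes, with Trim43a and Zfp352, belong to multicopy or 2-cell stage genes, whose transcripts mark the first cleavage stages and a rare ES cell state. AF067061 read 786.9, 1517.1 and 6357.2 on days 0, 1 and 2, on a probe set that other transcripts can share, and Gm20767 read 287.2, 514.8 and 2363.6. Tcstv3 read 67.1, 70.6 and 306.2, Trim43a 101.6, 193.7 and 780.5 and Zfp352 117.2, 214.5 and 684.6. The second probe set of Zfp352 read the floor, 129.0 and 584.7 and so was more than 2-fold higher on day 1 already. Of the 5, all but Tcstv3 were at least 1.79-fold higher on day 1. Copies of such genes are alike in sequence, so each signal may sum several genes.

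Metabolic enzymes were 9, with ratios of 3.16-fold to 14.7-fold. After Hdc, the bright ones were Rdh10, which makes retinaldehyde from retinol, at 206.3, 390.4 and 1235.4 on days 0, 1 and 2, Galnt3, which starts mucin-type glycans, at 77.2, 145.3 and 584.4, and Echdc3 at 112.5, 176.2 and 568.7. Rdh10 was close to the upper limit on day 1, at 1.89 times day 0, and its other probe set read 98.6, 110.8 and 268.7, under the 3-fold limit. The other probe sets of Galnt3 were at the floor on each array. Adh1, an alcohol dehydrogenase that also acts on retinol, read the floor, 56.2 and 246.2, and the glucuronosyltransferase Ugt2b34 the floor, 56.3 and 268.9. On a list of 15 measured retinoid genes, 1 was at least 2-fold higher and 5 lower in day 1 against day 0 (6.01% and 6.58% of all genes), and 4 were higher and 0 lower in day 2 against day 1 (5.62% and 3.67% of all genes), with medians of -0.04 and 0.40. Rdh10 was the late gene among the 15, and the left-out Ttr, which met the rule, was also among the 4 higher. Cyp26a1, which breaks down retinoic acid, read 110.4, 531.7 and 4787.8. The alkaline phosphatase gene Alppl2, the selenoprotein gene Selenoo and the copper monooxygenase homologue Moxd1 stayed between 170.8 and 275.8 on day 2.

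A further 24 members, many of them gene models or genes with no settled role, had day 2 signals of 179.9 to 1864.2. Morc4, of a family of chromatin ATPases, read 457.5, 424.6 and 1864.2, and Ndrg4 497.3, 415.2 and 1285.1 on days 0, 1 and 2. H2-Q5, a class I histocompatibility gene, read the floor, 61.2 and 361.9, and Igf2os, an RNA antisense to Igf2, 73.6, 139.4 and 472.4. The other probe set of H2-Q5 was at the floor on each array. Of the 24, 14 had a day 1 signal within the receptor background. The others named here by symbol alone were Lce1h, Samd4, Grip2, Rnf24, Tanc2, Ppp1r16b, Tmem140, Fam219a, Ppm1h, Speer4cos, AA986860, BC080696, Gm11544, 1810062G17Rik, 4930527J03Rik, 4933402E13Rik and 5430402O13Rik.

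Other probe sets of the same genes were compared on the same arrays. The rule had passed them over for a lower mean signal, and did not use their ratios. They share the RNA with the chosen probe sets and are a check of probe choice, not of the cultures. Of 136 members, 76 had 142 further probe sets, of which 34 were at the floor on both day 1 and day 2. Among the other 108, 82 were at least 2-fold higher on day 2 than on day 1, 26 were within 2-fold and 0 were at least 2-fold lower. Over all genes, 560 of 11291 such probe sets (4.96%) were at least 2-fold higher. The median log2 ratio was 1.68 for the 108 and 0.01 for the 11291.

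Where the other probe set had a signal of 150 or more on day 1 or day 2, 74 of 77 were at least 2-fold higher, and 55 of the 77 met the whole rule by themselves. The share over all genes at that signal was 455 of 7376 (6.17%). A probe set that was dim on day 1 could pass this limit only by being high on day 2. The 74 of 77 therefore follow in part from the limit. The 108 had passed a like limit, since a probe set at the floor on day 1 counted only if above it on day 2. The 11291 over all genes were limited in the same way. Set against all 142 further probe sets of the members, 82 were at least 2-fold higher on day 2 than on day 1. The 3 exceptions among the 77 belonged to Lamp2, Ccn1 and Sh3pxd2b, given above. Of the 77, 6 were at least 2-fold higher on day 1 than on day 0 already, those of Ccn1, Epb41l3, Sgk3, Sh3pxd2b, Wls and Zfp352, and 3 were at least 2-fold lower on day 1, those of Btg2, Ddit4l and Ndrg4. The remaining 23 probe sets within 2-fold were all under 150. Of the 62 members with another probe set above the floor, 50 had at least 1 that was 2-fold higher.

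**Figure D4:**
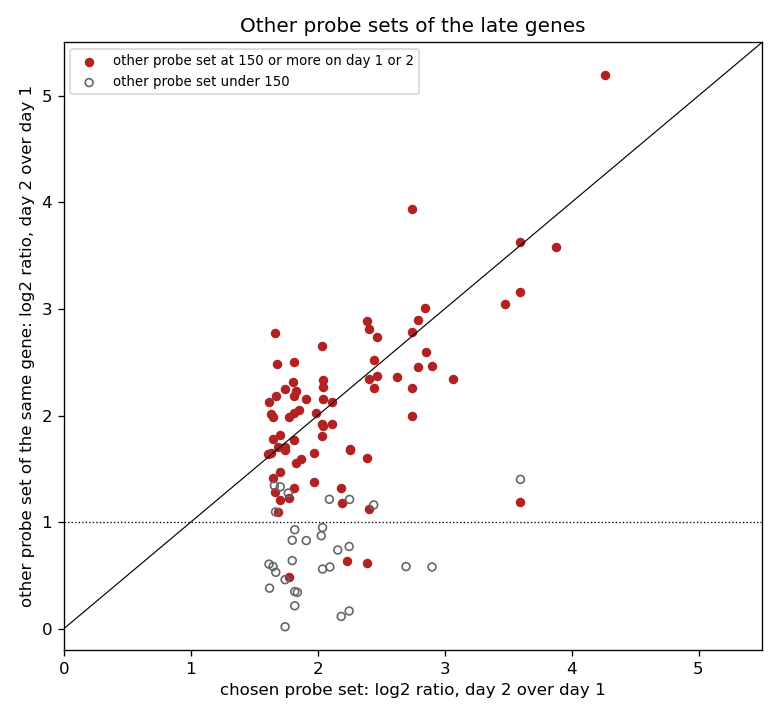
Log2 ratio of day 2 over day 1 for the chosen probe set of a late gene (x axis) and for each other probe set of that gene above the floor (y axis), 108 in all. Filled points had a signal of 150 or more on day 1 or day 2, and open points were dimmer. The solid line marks equal ratios and the dotted line a 2-fold difference, above which 74 of the 77 filled points lie. A probe set dim on day 1 could be a filled point only through a high day 2 signal, and one at the floor on day 1 is drawn only if above it on day 2.

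Genes at the edges of the rule differed little from their neighbours on the other side. At the 3-fold limit, Cdkn1c (3.01), Barx1 (3.02) and Fgf1 (3.04) were inside, and Lrrc3 (2.997), Rras2 (2.99) and Igsf11 (2.98) outside. At the lower day 1 limit, Cdc42ep2 (0.535), Slc24a3 (0.539) and Adam19 (0.572) were inside, and Hspb2 (0.488), Pdpn (0.458) and Smarcd3 (0.454) outside. At the upper one, AA986860 (1.993), Tanc2 (1.992) and Sh3pxd2b (1.95) were inside, and Cst3 (2.09), Cldn6 (2.09) and Patj (2.15) outside. Against day 0, Alppl2 (2.17), Man2b2 (2.17) and 4930527J03Rik (2.18) were inside, and Cald1 (1.9995), Fosl2 (1.97) and Id4 (1.92) outside. Barx1, Foxc1 and Adamtsl5 had the lowest day 2 signals, 162.9, 165.4 and 165.7, and, since 3 times the floor is already above 150, the limit on the day 2 signal left out no gene.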

How the data were processed

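Total RNA from 3 cultures was labelled with biotin and hybridised to 3 arrays, 1 per day, per the labels' protocols. What was deposited is a linear intensity for each probe set, which the authors made with MAS5 per the submitters' processing notes, version not given in the sources used here. MAS5 combines perfect-match and mismatch probes. The 2% trimmed means of 497.5, 497.6 and 497.7 show a common scaling, whose target is not stated. It assumes equal total signal on each day. The number of arrays limits the precision.

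Of 45101 probe sets, 64 were controls, 34945 had 1 gene in the platform annotation, 932 several and 9160 none here. Symbols were updated by gene identifier through a RefSeq table of GRCm38.p6, which matched 34741. Values under 54 were set to 54. Counts past a fold over all genes are over genes above the floor on at least 1 of the 2 arrays compared. Measured genes on a list are those above the floor on at least 1 of the 3 arrays. The shares of all genes given beside list counts thus have a slightly different base. Lists of known genes, roles and sequence words were written by hand, and the roles after the values were seen. The members and lists were chosen with earlier results of these data known. Values on all arrays were to be given for the 15 members with the highest ratio, the 10 with the highest day 2 signal, every member on a list or with another probe set that goes against it, and the 3 genes on each side of each limit, with any member named by role. Values of further members were added after they were seen. The rule was tested on simulated data. Days were not tested against each other, since each has a single array. Alternatives were other floors, probe set choices, scalings and limits. Work was done in Python 3.11.15 with pandas 2.3.3.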

Additional observations from a re-analysis of the deposited data

How the results depend on the processing

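Each alternative was run on the whole table, and 8 kept the limits of the rule while changing the values. The number of late genes was 136 as reported, 86 with a pseudocount of 50 in place of the floor and 60 with day 2 at least 4 times day 1. Other settings gave 98 to 132. Of the 136 genes, 36 met the rule under all 8 settings, among them Enpep, Cldn7, Gpc6, Ap1m2, Myo6, Timp2, Stx3, Lgmn and Clcn5, and 0 met it under none. Of the 3 genes with the highest ratios, Nxf7 met it under 6, and Cryab and Hdc under 7. Floors moved the background most: 757 genes were at least 2-fold higher and 494 lower on day 2 than on day 1, but 1341 and 912 when values were floored at the 25th percentile and 440 and 271 at the 60th. At the 60th-percentile floor, 73 of the 136 still met the rule and 94 were at least 2-fold higher on day 2 than on day 1. The median log2 ratio of the members stayed between 1.62 and 2.02. Of 55 named genes, 353 of 436 recomputed log2 ratios moved by less than the measurement SD, 83 by more and 0 changed sign. A ratio that fell to 0.00 was not counted as a change of sign. With probe sets named _s_at, _x_at or _a_at left out, 122 members had a value, and 118 of them were higher on day 2. The rest, Cryab, Alppl2, Fgf22 and Gpr137b, had a log2 ratio of 0.00, with the remaining probe set at the floor on day 1 and day 2. Chosen probe sets were _s_at or _x_at in 15 of the 136 members and _a_at in 12. No paired analysis was possible because each day had 1 array. Leaving out a replicate was not possible for the same reason. Dim genes limit the reading: 44 members had a day 1 signal within the receptor background, so their ratios are lower bounds.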

Other observations

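Several listed genes outside the rule were lowest on day 1 and highest on day 2, or higher on each day. Pdpn, podoplanin, a membrane glycoprotein of parietal endoderm, read 475.0, 217.6 and 2174.4 on days 0, 1 and 2, so its day 1 signal was too low against day 0 for the rule. Timp3, an inhibitor of metalloproteases, read 121.5, under the floor and 778.6. Cdkn1a, the CDK inhibitor p21, read 494.3, 201.5 and 1978.2. Igfbp4, an IGF-binding protein far from the limits, read 405.4, 89.1 and 546.2, a low on day 1 and a day 2 signal near that of day 0. Cst3, cystatin C, read 2182.9, 4551.8 and 13739.5 and was just too high on day 1.

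Over all genes above the floor, 136 of 14257 were late genes, so lists of the sizes below would hold few or none at that share. Of 23 measured glucocorticoid response genes, listed because dex commonly stands for a glucocorticoid, 0 were late genes. In day 1 against day 0, 1 was at least 2-fold higher and 4 lower (6.01% and 6.58% of all genes), with a median log2 ratio of -0.15, and in day 2 against day 1, 1 was higher and 3 lower (5.62% and 3.67% of all genes), with a median of 0.03. The 22 measured interferon response genes also held 0 late genes, with 2 higher and 1 lower in day 2 against day 1, and the 39 measured lipid metabolism genes held 0, with 5 higher and 1 lower. Of 29 measured serine proteases and inhibitors, 11 were higher and 2 lower, and Plat and Tmprss2 were late genes. Coagulation factor F3 read 199.1, 1389.0 and 5165.3 on days 0, 1 and 2, and Habp2, a plasma protease, read under the floor, 169.3 and 807.1. All 22 pluripotency genes were measured, and 0 were late genes, 0 higher and 8 lower in day 2 against day 1.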
